A study of Caenorhabditis elegans with 60 samples.

Results

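The genes described here are the 9 core genes of the sperm-oocyte decision and of sex determination in *Caenorhabditis elegans*: *fog-1*, *fog-3*, *fog-2*, *gld-1*, *fem-1*, *fem-2*, *fem-3*, *tra-1* and *tra-2*. They were taken by name for their known role, and are 9 of the 31106 genes in each gene table. Hermaphrodites of this species first make sperm during the last larval stage (L4) and then switch to oocytes as adults. In the pathway, the membrane receptor TRA-2 holds back the FEM proteins, and the FEM proteins lead to breakdown of the transcription factor TRA-1, so that active FEM proteins allow male fate and active TRA-1 allows female fate. In the germ line, FOG-1 and FOG-3 act at the end of this pathway to specify sperm, and FOG-2 together with the RNA-binding protein GLD-1 represses translation of *tra-2* mRNA so that sperm can be made in an otherwise female body.

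The study sequenced small RNAs bound by 2 isoforms of the Argonaute protein CSR-1, which share most of their sequence: CSR-1A, which has extra N-terminal residues with arginine-glycine motifs, and the shorter CSR-1B. Argonautes carry short guide RNAs, and CSR-1 carries 22G-RNAs, which begin with guanosine and are antisense to germline mRNAs. Each immunoprecipitate (IP) was set against small RNAs of the lysate it came from (input), so that the comparison asks which genes have small RNAs bound by the tagged protein. The mRNA libraries ask how gene expression differs between *csr-1a* mutants and wild type at L4.

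Tagged CSR-1A came from *csr-1a(cmp165[2xHA::csr-1a])* animals at L4 (3 IPs and 2 inputs). The same tag, as allele *cmp237*, was used in animals that lack the spermatogenesis Argonautes ALG-3 (*tm1155*) and ALG-4 (*ok1041*), called *alg-3/4* (3 IPs and 3 inputs), and in animals whose CSR-1A arginines in these motifs were changed to alanine, *csr-1a(cmp165 cmp208)*, called CSR-1A[15xAG] (3 and 3). CSR-1B alone was tagged by a 2xFLAG allele, *cmp167*, in animals that also carry *csr-1a(cmp135)*, where *cmp135* removes coding sequence with the *csr-1a* start codon, and both isoforms were tagged in *csr-1b(cmp166[2xFLAG::csr-1])*, called CSR-1A+B. Each of these 2 strains gave 2 IPs and 2 inputs at L4 and again in adults. WAGO-1, an Argonaute of another small RNA branch, came from animals with a GFP::3xFLAG tag on it (*cmp92*) and an mCherry tag on MUT-16 (*cmp41*) at L4 (2 and 2). Untagged wild type (N2) gave control IPs at L4 with the HA antibody (3 IPs and 2 inputs) and the FLAG antibody (3 and 3), and 2 libraries of total small RNA. The mRNA libraries were 3 each of *csr-1a(cmp135)*, of *csr-1a(cmp143)*, which also lacks part of the promoter, and of wild type, all at L4. By the labels, L4 animals were taken 48 h and adults 68 h after hatching at 20 °C. The study's methods count these hours from L1 arrest and give a slightly later time for the L4 IPs. All are whole-animal lysates, of genome-edited lines except for wild type, so the germ line was measured together with the soma. The CSR-1B strain lacks a functional *csr-1a* start codon at both stages, so its values are those of CSR-1B without CSR-1A.

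Small RNA libraries held 570862 to 17342341 counts on genes (median 5874916.5) and mRNA libraries held 16729691 to 21093818. The shallowest is the first CSR-1B IP at L4, with 570862 counts against 7232476 in the second. Values without it are given for some of the results that it enters. None of 46 pairs of replicates held identical values. Nothing in the labels says that replicates came from separate cultures, so p-values measure the spread between these libraries. Values per library are counts per 1000000 (CPM) scaled within each comparison by edgeR's trimmed mean of M-values (TMM), so they are not to be set side by side between comparisons. Differences are log2 with their standard error (SE) and an adjusted p (quasi-likelihood test of edgeR, Benjamini-Hochberg over all tested genes), called at 0.05. A target also had to be at least 2-fold higher in the IP, to average at least 10 reads per 1000000 mapped reads (RPM) in the IP, and not to meet the same test in the wild-type IP with the same antibody. Scaling by library size alone moved the median of all genes by more than 0.1 in 17 of 21 comparisons (between −1.27 and 1.1), so the all-gene median is given beside each comparison.

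*fog-2* has a neighbouring copy, *ftr-1* (V:20196971-20198242), with 845 of 1010 aligned bases identical (83.7%). Because 22G-RNAs are short, 2 stretches of the alignment are shown to let a reader see where reads of the 2 genes can and cannot be told apart. The first is 1 of 95 windows of 30 bases, of 560 (17%), in which both genes are identical. The second has 3 differences, the median over windows, with the differing bases in capitals. All are on the plus strand of chromosome V.
*fog-2* and *ftr-1*, V:20199596-20199625 and V:20197307-20197336: cagtccgcaaagtgtgccgaaatttgcgaa
*fog-2*, V:20199299-20199328: tGaaaatttgAcggatgagttggattTgat
*ftr-1*, V:20197009-20197038: tAaaaatttgGcggatgagttggattCgat
Over all its exons, 12.4% of the 22-base words of *fog-2* occur elsewhere in the genome, and 11.9% of its words occur in *ftr-1*. For *tra-1* the share is 6.7%, and for the other 7 genes it is at most 0.112%.

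The 3′ UTR of *tra-2* (235 bases) is where GLD-1 and FOG-2 are known to act, and it holds a direct repeat of 28 bases in 2 identical copies 4 bases apart. It is shown because it ties 3 of the genes to each other. The capitals mark the repeat, on the minus strand.
*tra-2*, II:6955503-6955530 and II:6955471-6955498: TATTTAATTTCTTATCTACTCATATCTA
No count in these data separates the repeat from the rest of *tra-2*.

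The 9 genes lie on 5 chromosomes (WBcel235). *fog-1* (I:3211046-3217366), *fog-3* (I:10016778-10018114) and *gld-1* (I:7695661-7698227) are on chromosome I. The others are *tra-2* (II:6955402-6965687), *tra-1* (III:11170889-11195207), *fem-2* (III:631938-634645), *fem-1* (IV:5533142-5537992), *fem-3* (IV:9104966-9107609) and *fog-2* (V:20199262-20200640). Counting took no account of strand, so small RNAs against a gene are, in the values below, reads of either strand that map to its exons. On the opposite strand, 71 exonic bases of *fog-1* (3.2%) overlap *rom-5*, as do 12 of *fem-1* (0.505%) with *drp-1*. Reads in these stretches cannot be assigned to 1 of the genes.

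In wild-type L4 animals, small RNAs were most abundant against *gld-1* and least abundant against *fog-1*. In RPM per kilobase of exon, *gld-1* had 22.5 ± 3.14 (SD, n = 2). *fem-1* (6.58 ± 0.703) and *fog-2* (5.90 ± 1.15) came next, and their 2 libraries overlapped. *tra-1* (4.6 ± 0.161), *fem-3* (4.28 ± 0.296) and *fem-2* (4.20 ± 0.984) did not differ beyond their spread. Below them were *tra-2* at 2.45 ± 0.469 and *fog-3* at 1.88 ± 0.688, whose libraries overlapped too, and *fog-1* at 1.01 ± 0.069.

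Their mRNAs had another order in wild type (n = 3). In counts per 1000000 counted reads and per kilobase, the level of *fem-2* (22.1 ± 0.266), which encodes a protein phosphatase, was close to that of *fem-1* (21.2 ± 1.43), which encodes the substrate adaptor of a ubiquitin ligase. *tra-1* (12.8 ± 0.28) and *gld-1* (12.3 ± 0.732) followed and lay within each other's spread, then *tra-2* (5.05 ± 0.488) and *fog-2* (2.68 ± 0.425). *fem-3* (1.5 ± 0.265), *fog-3* (0.956 ± 0.426) and *fog-1* (0.577 ± 0.157) had the lowest levels. Across the 9 genes, which share their libraries, log2 levels of small RNA and mRNA had a Pearson r of 0.665 and a Spearman rho of 0.567. These are whole-animal samples, in which fewer cells of a type and less RNA per cell cannot be told apart.

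**Figure D1:**
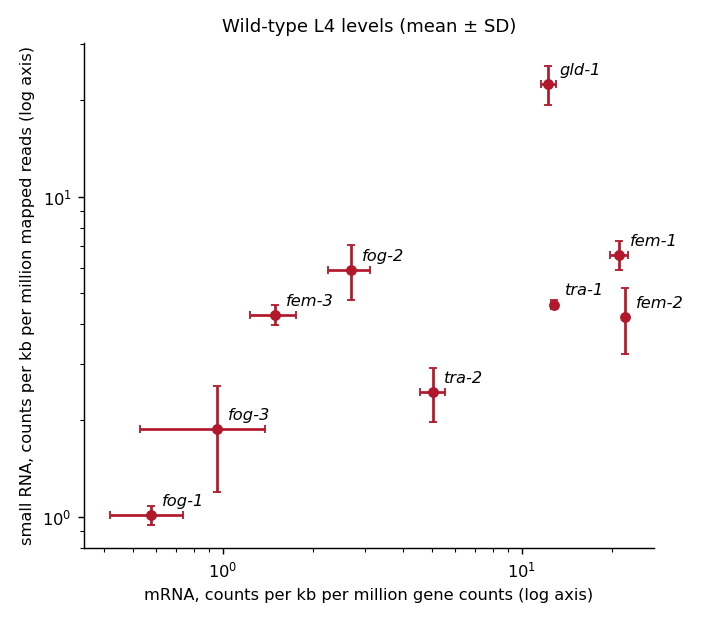
Small RNA level (RPM per kilobase, 2 libraries of total small RNA) and mRNA level (counts per 1000000 counted reads and per kilobase, 3 libraries) of the 9 genes in wild-type L4 animals, log axes. *gld-1* lies highest for small RNA at 22.5, and *fog-1* lies lowest on both scales.

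CSR-1B IPs at L4 held more small RNAs than their inputs against *fog-1*, *fog-3*, *fog-2*, *gld-1*, *fem-1*, *fem-2* and *tra-1*. On the TMM scale they held fewer against *fem-3*, and *tra-2* was not called. Of the 9 genes, 7 were higher in the CSR-1B IP, where 32.4% of all tested genes were, 1 was lower, where 54.2% of all were, and 6 were targets, where 27.1% of all were. The median of all genes was −1.25. With library size alone as scaling (median −0.17), 42.2% of all genes were higher and 42.8% lower, and of the 9 genes 7 were higher, 1 lower and 7 targets.

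Among the terminal sperm-fate genes, *fog-1*, a CPEB-family RNA-binding protein, had 36.9 and 43.7 CPM in the CSR-1B IPs and 6.1 and 6.86 CPM in the inputs (log2 difference 2.69 ± 0.25, adjusted p = 5.7e-08). *fog-3*, a Tob-family protein, had 46.4 and 61.8 CPM in the IPs and 7.11 and 5.21 CPM in the inputs (3.16 ± 0.26, adjusted p = 1.49e-08). For both genes the lowest IP was more than 5 times the highest input. In raw counts, the shallow first IP had 31 and 39 counts on these genes, and the second had 455.5 and 645.

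*gld-1* had the most small RNA reads of the 9 genes, with 455 and 479 CPM in the CSR-1B IPs and 63.3 and 68.4 CPM in the inputs (2.83 ± 0.17, adjusted p = 2.93e-10). *fog-2*, an F-box protein that binds GLD-1, had 25 and 44.3 CPM in the IPs and 6.97 and 11.6 CPM in the inputs (2.11 ± 0.29, adjusted p = 6.11e-06). The libraries of both genes did not overlap between IP and input. *ftr-1*, the copy of *fog-2*, was at 0.35 ± 0.30 (adjusted p = 0.289) in the same comparison.

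The FEM genes were divided. *fem-2* had 73.8 and 77.7 CPM in the CSR-1B IPs and 11 and 14 CPM in the inputs (2.63 ± 0.23, adjusted p = 2.43e-08), and *fem-1* had 27.4 and 32.5 CPM in the IPs and 16.4 and 14 CPM in the inputs (1.02 ± 0.23, adjusted p = 0.000691). *fem-3* had 17.9 and 13.3 CPM in the IPs and 43 and 46.2 CPM in the inputs (−1.65 ± 0.24, adjusted p = 1.1e-05), which is near the all-gene median of −1.25. In none of the 3 did IP and input libraries overlap on this scale. The direction of *fem-3* depended on the scale: it was at −0.56 (adjusted p = 0.0473) with library size alone, and per mapped reads it averaged 17.2 ± 3.21 RPM in the IPs and 13.3 ± 0.792 RPM in the inputs (SD, n = 2 each), with both IPs above both inputs.

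*tra-1* had 79.8 and 105 CPM in the CSR-1B IPs and 50.1 and 50.7 CPM in the inputs (0.92 ± 0.19, adjusted p = 0.000307), which is under the 2-fold floor for a target. *tra-2* had 13.1 and 10.8 CPM in the IPs and 15.4 and 16.3 CPM in the inputs (−0.50 ± 0.26, adjusted p = 0.0885), but its ratio of IP to input was 2.78 in RPM. Without the shallow first IP, *fog-2* was at 3.37, *fem-1* at 2.14, *tra-1* at 2.12 and *fem-3* at −0.68, all still called in the same direction, and *tra-2* turned to 0.52 (adjusted p = 0.0258). Without the second input, *fem-1* was at 0.91 (adjusted p = 0.0807), and with no filter on low counts *fem-3* was at −0.30 (adjusted p = 0.395) and *tra-2* at 0.85 (adjusted p = 0.00912).

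**Figure D2:**
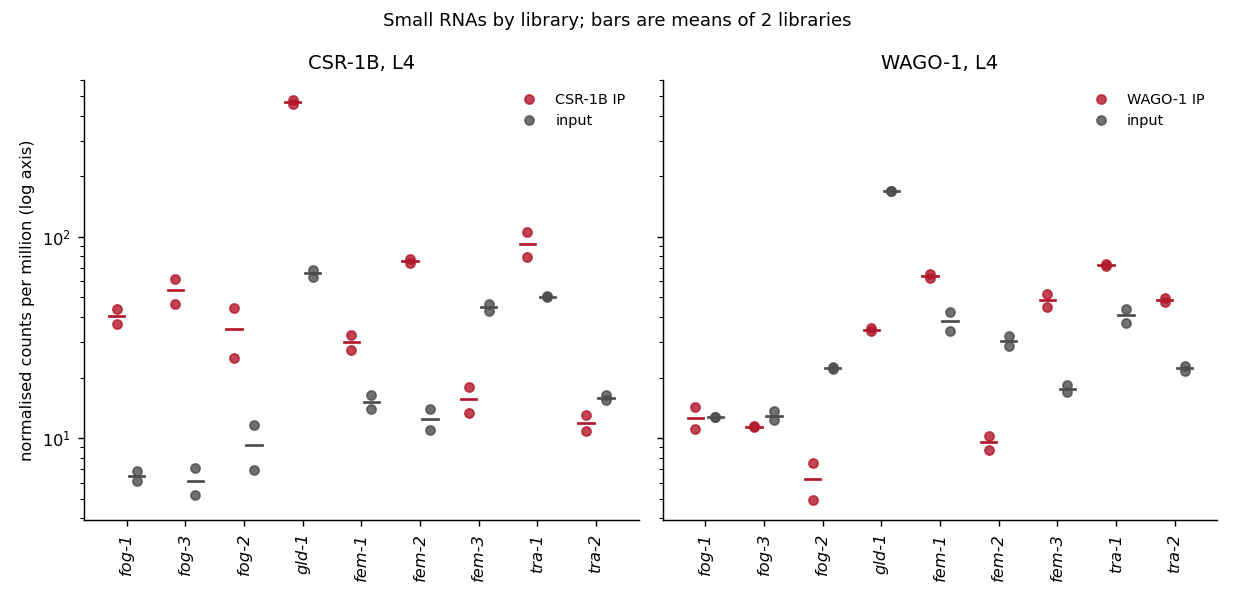
Normalised CPM of the 9 genes by library in IP (left of each pair) and input at L4, for CSR-1B and WAGO-1, 2 libraries each, log axis, bars at the means; values are scaled within each comparison. For CSR-1B the IPs of *fog-1*, *fog-3*, *fog-2*, *gld-1*, *fem-1*, *fem-2* and *tra-1* lie above their inputs, and for WAGO-1 those of *fog-2*, *gld-1* and *fem-2* lie below.

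With both isoforms tagged, *fog-1*, *fog-3*, *fog-2*, *gld-1*, *fem-1*, *fem-2* and *tra-1* were higher in the IP at L4, none of the 9 was lower, and these 7 were targets. Among all genes, 39.1% were higher, 39.1% were lower and 30.4% were targets, with a median of −0.07. *fem-2* had 68.2 and 62.3 CPM in the CSR-1A+B IPs and 6.12 and 4.8 CPM in the inputs (3.56 ± 0.21, adjusted p = 1.07e-05). *fog-2* had 44.4 and 72.3 CPM in the IPs and 5.48 and 7.1 CPM in the inputs (3.22 ± 0.31, adjusted p = 5.49e-05), and *ftr-1* was at 0.78 (adjusted p = 0.0471). These were the largest differences among the 9 genes in that comparison.

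*fog-3* had 30.8 and 36.3 CPM in the CSR-1A+B IPs and 3.87 and 3.97 CPM in the inputs (3.09 ± 0.23, adjusted p = 1.97e-05). *gld-1* had 336 and 290 CPM in the IPs and 45.6 and 47.4 CPM in the inputs (2.75 ± 0.16, adjusted p = 9.76e-06). *fog-1* had 19.7 and 20 CPM in the IPs and 4.19 and 4.39 CPM in the inputs (2.21 ± 0.23, adjusted p = 8.15e-05). In all 3 the lowest IP was more than 4 times the highest input.

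*fem-1* had 38 and 30.7 CPM in the CSR-1A+B IPs and 12.2 and 12.7 CPM in the inputs (1.46 ± 0.20, adjusted p = 0.000379). *tra-1* had 75.2 and 83.4 CPM in the IPs and 37.4 and 37.2 CPM in the inputs (1.09 ± 0.16, adjusted p = 0.000486). *fem-3*, at 26.4 and 29.8 CPM in the IPs and 24.5 and 28.4 CPM in the inputs (0.09, adjusted p = 0.671), and *tra-2*, at 15.6 and 13.6 CPM in the IPs and 14.2 and 13 CPM in the inputs (0.10, adjusted p = 0.661), overlapped between IP and input. The calls of the 9 genes held with any 1 library left out.

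CSR-1A is the isoform of the spermatogenic germ line, and on the TMM scale *fog-3* and *fem-2* of the 9 genes were higher in its IPs at L4. Of the 9, 2 were higher in the CSR-1A IP and 1 was a target, which is near the shares of all tested genes. Among all genes, 20.8% were higher, 13.7% lower and 13.1% targets, with a median of 0.25. With DESeq2's size factors 15.5% of all genes were higher and 18.5% lower. In the same IPs 13 of 15 markers of the spermatogenic germ line were higher (median 1.73) and 1 of 12 oogenic markers was.

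*fog-3* had 14.8, 13.4 and 11.5 CPM in the CSR-1A IPs and 5.28 and 4.88 CPM in the inputs (1.38 ± 0.26, adjusted p = 0.00781), with no overlap. It averaged under 10 RPM and so was not counted as a target, but was one when rates were taken over the reads on genes. *fem-2* had 48.5, 22 and 43.6 CPM in the IPs and 16.6 and 18.5 CPM in the inputs (1.12 ± 0.36, adjusted p = 0.0481). The second IP was the lowest for 7 of the 9 genes.

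Both calls depended on single libraries. That of *fem-2* was lost without the first or the third IP (0.90 and 1.00, adjusted p = 0.103 and 0.137) and without either input (1.05 and 1.21, adjusted p = 0.258 and 0.192), with DESeq2 (0.87, adjusted p = 0.0606), and in the fit that pairs each IP with its lysate (0.83, adjusted p = 0.114). The call of *fog-3* was lost without either input (1.44 and 1.34, adjusted p = 0.0762 and 0.078). Without the second IP, *fog-2* (0.76, adjusted p = 0.00677) and *fem-3* (−0.54, adjusted p = 0.0304) were called too.

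*fog-2* had 38, 15.2 and 30.9 CPM in the CSR-1A IPs and 16.4 and 15.7 CPM in the inputs (0.80 ± 0.39, adjusted p = 0.136). *fog-1* had 9.34, 5.61 and 4.98 CPM in the IPs and 7.55 and 5.3 CPM in the inputs (0.04 ± 0.36, adjusted p = 0.941). *gld-1* had 226, 91.7 and 164 CPM in the IPs and 132 and 116 CPM in the inputs (0.37 ± 0.36, adjusted p = 0.427). IPs and inputs of all 3 overlapped on this scale. The other 4 genes lay between −0.35 (*fem-3*) and 0.48 (*fem-1*), with adjusted p from 0.178 to 0.795. In RPM, IPs lay above inputs for *fog-3* (ratio 3.78), *fem-2* (3.16), *fog-2* (2.53), *fem-1* (2.05) and *tra-1* (1.61). Those of *gld-1* (1.88), *tra-2* (1.56), *fog-1* (1.5) and *fem-3* (1.14) overlapped in RPM.

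The difference between CSR-1A and CSR-1B was tested directly as the difference of their enrichments. It was below zero for *fog-1* (−3.03 ± 0.59, adjusted p = 0.000989), *gld-1* (−2.80 ± 0.58, adjusted p = 0.00147), *fog-3* (−2.18 ± 0.57, adjusted p = 0.00563), *fem-2* (−1.86 ± 0.59, adjusted p = 0.0144) and *fog-2* (−1.64 ± 0.68, adjusted p = 0.0478). Of all genes 19.1% were lower and 37.6% higher in this comparison (29.6% and 29.4% with library size alone), and the median was 1.08. For *tra-1* (−1.14, adjusted p = 0.0766), *fem-1* (−0.93, adjusted p = 0.138), *fem-3* (0.84, adjusted p = 0.133) and *tra-2* (0.14, adjusted p = 0.82) it was not called. Isoform, antibody, tag, strain and the version of the read counter all differ between the 2 sides and cannot be told apart. Levels in the inputs differed too. In RPM, CSR-1A and CSR-1B inputs averaged 3.29 and 1.95 for *fog-1*, 63.5 and 19.7 for *gld-1*, and 2.6 and 1.84 for *fog-3*. They averaged 8.92 and 3.74 for *fem-2* and 8.21 and 2.78 for *fog-2*. The IPs averaged, in the same order, 4.94 and 44.6, 119 and 517, 9.83 and 60.0, 28.2 and 83.8, and 20.8 and 38.5. The part of the inputs was not tested.

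Left-out libraries changed several of these differences. *fog-2* was at −0.66 (adjusted p = 0.406) without the second CSR-1B IP and was also lost without any of the 4 inputs (−1.29 to −2.03, adjusted p = 0.0543 to 0.2). *fem-2* was lost without the third CSR-1A input (−1.79, adjusted p = 0.0635) or the first CSR-1B input (−1.69, adjusted p = 0.091). Without the shallow CSR-1B IP *tra-1* (−1.86, adjusted p = 0.000723) and *fem-1* (−1.56, adjusted p = 0.00389) were called, and *tra-1* was called without the second CSR-1A IP (−1.34, adjusted p = 0.034). Both were also called with DESeq2 (−1.10 for *fem-1* and −1.31 for *tra-1*, adjusted p = 0.04 and 0.00661), with its size factors and with library size alone, and *tra-1* with no filter (−1.03, adjusted p = 0.0326).

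In animals without ALG-3 and ALG-4, *fog-3* was the target among the 9 genes for CSR-1A. It had 32.6, 56 and 66.5 CPM in the IPs and 16.6, 24 and 32.2 CPM in the inputs (1.09 ± 0.29, adjusted p = 0.00833), with each IP above all inputs. *fem-1* was higher too, with 35.7, 33.5 and 29.6 CPM in the IPs and 25.3, 19.7 and 22.2 CPM in the inputs (0.56 ± 0.19, adjusted p = 0.0262). Of all genes 25.2% were higher, 31.9% lower and 13% targets (median −0.09), and 14 of 15 spermatogenic markers were higher. These markers include *alg-3* (1.473) and *alg-4* (2.495), which are mutated in these animals.

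*tra-1* had 30.1, 29.4 and 28.8 CPM in the IPs from *alg-3/4* animals and 49.6, 41.1 and 44.1 CPM in the inputs (−0.61 ± 0.17, adjusted p = 0.00975), but 0.29, not called, with library size alone. *gld-1* had 118, 87.2 and 101 CPM in the IPs and 146, 148 and 160 CPM in the inputs (−0.57 ± 0.18, adjusted p = 0.0187), but 0.33 with library size alone. *fem-3* had 17.5, 9.29 and 16.3 CPM in the IPs and 21.4, 21.9 and 24.4 CPM in the inputs (−0.66 ± 0.26, adjusted p = 0.0458), but 0.23 with library size alone. The libraries of these genes did not overlap on the TMM scale, and their direction depended on the scaling: with library size alone 55.3% of all genes were higher and 11.7% lower, and 6 of the 9 genes were higher and none lower. In RPM the IPs of all 3 genes lay above their inputs (ratios of 1.7 for *tra-1*, 1.73 for *gld-1* and 1.63 for *fem-3*).

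*fog-1* (0.06), *fog-2* (0.15), *fem-2* (0.32) and *tra-2* (−0.03, or 0.86 with library size alone) were not called, with adjusted p from 0.165 to 0.915. Without the second IP the values were −0.40 for *fem-3*, −0.45 for *gld-1* and 0.57 for *fem-1*, none called (adjusted p = 0.168, 0.0822 and 0.0516). *fem-3* was also lost without the third IP or any input (−0.59 to −0.72, adjusted p = 0.0629 to 0.142), *gld-1* without the third IP or the third input (−0.51 and −0.52, adjusted p = 0.065 and 0.0837) and *fem-1* without the second or the third input (0.48 and 0.56, adjusted p = 0.107 and 0.0795). With no filter on low counts the 3 genes below zero were not called either (*gld-1* −0.40, *tra-1* −0.43 and *fem-3* −0.49), and with DESeq2 *fem-3* was not (−0.59, adjusted p = 0.0845). Set against CSR-1A in animals with ALG-3 and ALG-4, no difference of enrichment was called for the 9 genes (−0.49 for *gld-1* to 0.51 for *fem-1*), none had an unadjusted p under 0.05, and 2.04% of all genes were higher and 0.049% lower (median −0.04). DESeq2 called none of the 9 either.

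For CSR-1A[15xAG], 6 of the 9 genes were higher in the IP, none was lower and 3 were targets. Of all genes 37.1% were higher, 36% lower and 19.5% targets (median 0.03), and 10 of 15 spermatogenic markers were higher and 2 lower, and 7 of 11 oogenic markers were higher and none lower. With library size alone 60.2% of all genes and all 9 of these were higher, and 13.9% of all genes were lower. Markers of the soma moved too. All 10 cuticle markers (median −4.08) and 3 of 4 muscle and neuron markers (median −3.67) were lower in the IP. Their summed levels in the inputs were 400.0 to 463.0 RPM for cuticle and 930.0 to 1180.0 RPM for muscle and neurons in CSR-1A[15xAG], against 117.0 to 162.0 RPM and 225.0 to 257.0 RPM in CSR-1A. Germline markers differed the other way between these inputs. In CSR-1A[15xAG] they summed to 132.0 to 160.0 RPM (spermatogenic), 76.7 to 87.6 RPM (oogenic) and 188.0 to 234.0 RPM (germ line of either sex). In CSR-1A the sums were 257.0 to 259.0, 271.0 to 289.0 and 597.0 to 678.0 RPM. None of these markers was at 0, and their part in the results of the 9 genes was not tested.

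*fog-3* had 10.2, 7.34 and 8.58 CPM in the CSR-1A[15xAG] IPs and 2.58, 2.35 and 2.43 CPM in the inputs (1.83 ± 0.26, adjusted p = 4.16e-05). *fog-2* had 15.1, 11.1 and 14 CPM in the IPs and 6.55, 4.87 and 4.37 CPM in the inputs (1.34 ± 0.22, adjusted p = 0.000127). *fem-2* had 14.5, 13.4 and 14.7 CPM in the IPs and 5.56, 6.71 and 6.79 CPM in the inputs (1.16 ± 0.18, adjusted p = 8.78e-05). In these 3 targets the lowest IP stood well above the highest input. In RPM, their IPs and inputs averaged 10.2 and 1.19 (*fog-3*), 15.6 and 2.58 (*fog-2*) and 16.6 and 3.07 (*fem-2*). For unaltered CSR-1A these were 9.83 and 2.6, 20.8 and 8.21, and 28.2 and 8.92 RPM.

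*fog-1* had 5.6, 3.56 and 6.29 CPM in the CSR-1A[15xAG] IPs and 1.99, 2.01 and 3.64 CPM in the inputs (1.05 ± 0.34, adjusted p = 0.0143), overlapping by 1 library each. It was not called without the first or second input (0.93 and 0.92, adjusted p = 0.0619 and 0.0664). *gld-1* had 83.4, 86.8 and 105 CPM in the IPs and 59.6, 60.8 and 57.7 CPM in the inputs (0.63 ± 0.13, adjusted p = 0.000938). *fem-1* had 20.1, 19.2 and 24.1 CPM in the IPs and 12.1, 14.3 and 12.9 CPM in the inputs (0.69 ± 0.16, adjusted p = 0.00163). *gld-1* and *fem-1* did not overlap between IP and input.

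*tra-1* (−0.26, adjusted p = 0.0817), *fem-3* (−0.12, adjusted p = 0.63) and *tra-2* (−0.08, adjusted p = 0.704) were not called for CSR-1A[15xAG], although *tra-1* was called with DESeq2's size factors (−0.30, adjusted p = 0.0451). With library size alone they turned to 0.86, 1.00 and 1.02, all called. The change from unaltered CSR-1A was itself tested, and none of the 9 genes was called, where 7.48% of all genes were higher and 11.6% lower (median −0.02) and all 10 cuticle markers were lower (median −3.34). DESeq2 called none either. Of the 9, *fog-1* had the largest difference (1.21 ± 0.52, adjusted p = 0.12) and was the 1 gene with an unadjusted p under 0.05. In the fit that pairs IPs and inputs by number, where the first CSR-1A IP has no partner, it was at 1.41 ± 0.50 (adjusted p = 0.0498). With library size alone, where 33.3% of all genes were higher and 6.4% lower, 7 of the 9 genes were higher.

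WAGO-1 had another split, with small RNAs of *fem-3*, *tra-2*, *tra-1* and *fem-1* higher in its IP and those of *gld-1*, *fog-2* and *fem-2* lower. Of all genes 42.1% were higher, 44.1% lower and 16.9% targets (median −0.11). With library size alone, 3 of the 9 genes were higher, 5 lower and none a target.

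*fem-3*, whose product is a cofactor of the FEM complex, had 44.8 and 52.1 CPM in the WAGO-1 IPs and 18.3 and 16.9 CPM in the inputs (1.47 ± 0.12, adjusted p = 5.13e-08). *tra-2* had 49.5 and 47.3 CPM in the IPs and 22.9 and 21.5 CPM in the inputs (1.12 ± 0.11, adjusted p = 2.65e-07). Both were targets and neither overlapped with its inputs, and with library size alone they were at 0.90 and 0.55, still called. *tra-1* had 71.9 and 73.4 CPM in the IPs and 37.4 and 44 CPM in the inputs (0.84 ± 0.11, adjusted p = 6.72e-06), and 0.28 with library size alone. *fem-1* had 65.1 and 62.3 CPM in the IPs and 42.5 and 34.2 CPM in the inputs (0.73 ± 0.12, adjusted p = 4.35e-05), and 0.16 (adjusted p = 0.24) with library size alone.

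*gld-1* had 35.2 and 34 CPM in the WAGO-1 IPs and 168 and 168 CPM in the inputs (−2.28 ± 0.11, adjusted p = 2.72e-10). *fog-2* had 7.54 and 4.93 CPM in the IPs and 22.5 and 22.1 CPM in the inputs (−1.88 ± 0.21, adjusted p = 1.11e-06). *fem-2* had 10.3 and 8.77 CPM in the IPs and 32.3 and 28.7 CPM in the inputs (−1.69 ± 0.16, adjusted p = 2.2e-07). All 3 were far below their inputs in both IPs. *fog-1* (0.02 ± 0.19, adjusted p = 0.933) and *fog-3* (−0.18 ± 0.19, adjusted p = 0.387) were not called, and with library size alone both were lower (−0.55 and −0.74, adjusted p = 0.0145 and 0.00183).

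The difference between WAGO-1 and CSR-1B enrichment was called higher for 2 and lower for 5 of the 9 genes, where 45.2% of all genes were higher and 35.6% lower (35% and 45% with library size alone) and the median was 0.80. It was below zero for *gld-1* (−5.34 ± 0.36, adjusted p = 2.67e-09), *fem-2* (−4.56 ± 0.41, adjusted p = 3.42e-08), *fog-2* (−4.27 ± 0.53, adjusted p = 1.35e-06), *fog-3* (−3.63 ± 0.45, adjusted p = 1.28e-06) and *fog-1* (−2.98 ± 0.41, adjusted p = 4.76e-06). It was above zero for *fem-3* (2.77 ± 0.35, adjusted p = 1.79e-06) and *tra-2* (1.27 ± 0.35, adjusted p = 0.0033), although *tra-2* was at −0.028 (adjusted p = 0.928) with library size alone and at 0.056 (adjusted p = 1) with no filter.

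*fem-1* (−0.58, adjusted p = 0.172) and *tra-1* (−0.34, adjusted p = 0.43) were not called as differing between WAGO-1 and CSR-1B. Without the shallow CSR-1B IP they were at −1.21 and −1.09 (adjusted p = 9.06e-05 and 1.69e-05), and *tra-2* was at 0.80 (adjusted p = 0.0029). *fem-1* and *tra-1* were also called with library size alone (−1.96 for *fem-1* and −1.75 for *tra-1*) and with no filter (−1.87 and −1.66). Without the first or second WAGO-1 input *tra-2* was not called (1.11 and 1.00, adjusted p = 0.225 and 0.274). The 2 Argonautes were measured in different strains and with different versions of the read counter, and these cannot be told apart from the Argonaute. Their inputs differed too. Summed markers of the germ line of either sex were at 774.0 to 877.0 RPM for WAGO-1 and 180.0 to 199.0 RPM for CSR-1B. The part of the inputs was not tested.

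**Figure D3:**
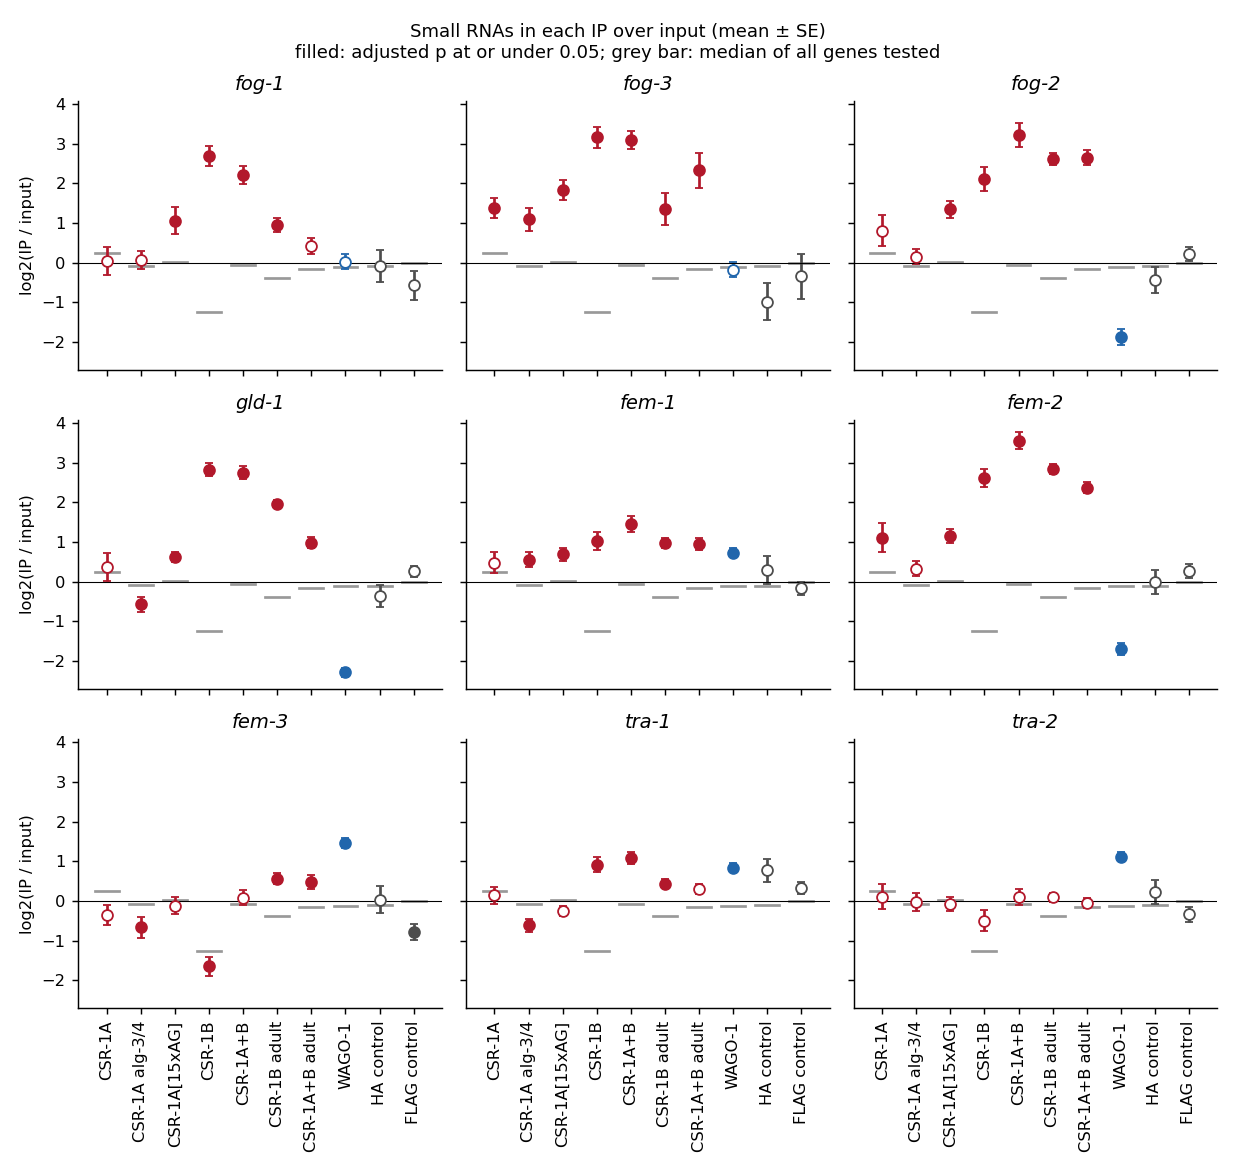
Log2 difference of IP over input (edgeR, TMM; bars are SE) of the 9 genes in the 8 tagged IPs and the 2 wild-type control IPs, with the median of all genes marked. *fog-3*, *gld-1* and *fem-2* lie at 2.63 or higher for both FLAG-tagged CSR-1 strains at L4, and *fem-3* and *tra-2* lie at 1.47 and 1.12 for WAGO-1; the values below zero of *gld-1*, *fem-3* and *tra-1* for CSR-1A in *alg-3/4* animals turn above zero when libraries are scaled by size alone.

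In IPs from untagged wild type, the FLAG antibody gave *fem-3* as the 1 called gene of the 9. It had 9.35, 11.1 and 12.8 CPM in the control IPs and 21.3, 16.6 and 19.8 CPM in the inputs (−0.79 ± 0.20, adjusted p = 0.0252), where 8.14% of all genes were higher and 3.89% lower (median 0.00). The call was lost without the first or second IP or the first or the third input (−0.68 to −0.80, adjusted p = 0.0605 to 0.0965). The other 8 genes lay between −0.57 (*fog-1*) and 0.33 (*tra-1*). With the HA antibody none of the 9 was called, where 1.53% of all genes were higher and 0.419% lower (median −0.09). DESeq2 called none there, and 1 gene had an unadjusted p under 0.05. *tra-1* was at 0.78 ± 0.29 there (adjusted p = 0.117), and at 1.09 without the first input. In the fit paired by number, where the second IP has no partner, it was at 0.67 ± 0.24 (adjusted p = 0.0366).

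In adults, which make oocytes, CSR-1B IPs held more small RNAs than their inputs against 8 of the 9 genes, *fem-3* included. Of all genes 39.5% were higher, 46.6% lower and 29.3% targets, with a median of −0.38, and 39.8% were higher and 28.4% lower with DESeq2. The targets were *fem-2*, *fog-2* and *gld-1*.

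*fem-2* had 174 and 156 CPM in the adult CSR-1B IPs and 22.9 and 23.1 CPM in the inputs (2.85 ± 0.12, adjusted p = 1.5e-09). *fog-2* had 64.8 and 59.9 CPM in the IPs and 10.5 and 9.89 CPM in the inputs (2.61 ± 0.14, adjusted p = 6.1e-09). *gld-1* had 347 and 362 CPM in the IPs and 95 and 86.7 CPM in the inputs (1.96 ± 0.11, adjusted p = 6.56e-09). None of the 3 overlapped. *ftr-1* was also higher here (1.43 ± 0.19, adjusted p = 2.01e-05), and reads of stretches that both copies share cannot be assigned to 1 of them.

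*fem-1* had 134 and 113 CPM in the adult CSR-1B IPs and 62.8 and 61.7 CPM in the inputs (0.99 ± 0.12, adjusted p = 9.21e-06). *fog-1* had 14.7 and 17.5 CPM in the IPs and 7.92 and 8.7 CPM in the inputs (0.95 ± 0.19, adjusted p = 0.000456). Both lay just under the 2-fold floor, and both were targets in fits with DESeq2, with its size factors or with no filter, which had 5 targets. *fog-3* was nearly absent, at 1.65 and 2.44 CPM in the IPs and 0.868 and 0.659 CPM in the inputs (1.34 ± 0.40, adjusted p = 0.00759), which rests on 25 and 24 counts in the IPs and 8 and 5 in the inputs. It was not called without the second input (1.22, adjusted p = 0.0556) or with DESeq2 (1.72, adjusted p = 0.0546).

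*fem-3* had 35 and 30 CPM in the adult CSR-1B IPs and 22.5 and 21.6 CPM in the inputs (0.56 ± 0.14, adjusted p = 0.00289). *tra-1* had 80.4 and 91.9 CPM in the IPs and 66.2 and 60.8 CPM in the inputs (0.44 ± 0.12, adjusted p = 0.00475). With library size alone these were 0.23 and 0.11 and not called (adjusted p = 0.145 and 0.438). *tra-2*, at 74.7 and 68.8 CPM in the IPs and 71.4 and 63.4 CPM in the inputs (0.09, adjusted p = 0.484), overlapped. It was called higher with DESeq2 (0.40, adjusted p = 0.0262), with its size factors (0.40, adjusted p = 0.00625) and with no filter (0.44, adjusted p = 0.00358), and those fits put *fem-3* at 0.87 to 0.91 and *tra-1* at 0.75 to 0.79.

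With both isoforms tagged, 6 of the 9 genes were higher in the adult IP and 2 were targets, where 36.1% of all genes were higher, 36.3% lower and 24.9% targets (median −0.15). *fog-2* had 74.2 and 56.9 CPM in the CSR-1A+B IPs and 10.2 and 10.7 CPM in the inputs (2.65 ± 0.18, adjusted p = 5.28e-06), and *ftr-1* was at 1.32 (adjusted p = 0.000306). *fem-2* had 108 and 122 CPM in the IPs and 22.4 and 22 CPM in the inputs (2.37 ± 0.14, adjusted p = 2.66e-06). *gld-1* had 177 and 214 CPM in the IPs and 94.4 and 102 CPM in the inputs (0.99 ± 0.13, adjusted p = 0.000218). No IP of these genes reached down to an input.

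*fem-1* was at 0.96 ± 0.15 in the adult CSR-1A+B IP (adjusted p = 0.000549) and *fog-3* at 2.33 ± 0.45 (adjusted p = 0.00179), the second from 39 and 27 counts in the IPs and 3 and 7 in the inputs. *fem-3* had 37.5 and 27.4 CPM in the IPs and 23.2 and 23.5 CPM in the inputs (0.48 ± 0.18, adjusted p = 0.0449), and was at 0.28 (adjusted p = 0.0651) without the first IP, at 0.73 (adjusted p = 2.94e-08) without the second, and not called without either input (0.50 each, adjusted p = 0.174 and 0.166), with DESeq2 (0.57, adjusted p = 0.0516) or with library size alone (0.32, adjusted p = 0.129). *fog-1* (0.42, adjusted p = 0.0777), *tra-1* (0.31, adjusted p = 0.0588) and *tra-2* (−0.05, adjusted p = 0.756) were not called. Without the first or the second IP, *fog-1* (0.51 and 0.42, adjusted p = 0.011 and 0.0301) and *tra-1* (0.45 and 0.27, adjusted p = 8.98e-05 and 0.0208) were, as they were with DESeq2's size factors and with no filter (0.51 and 0.61 for *fog-1*, 0.40 and 0.51 for *tra-1*).

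The change of CSR-1B enrichment with stage was tested as adult minus L4. It was below zero for *fog-3* (−2.37 ± 0.74, adjusted p = 0.0297), *fog-1* (−2.29 ± 0.45, adjusted p = 0.00153) and *gld-1* (−1.34 ± 0.43, adjusted p = 0.0341) and above zero for *fem-3* (1.61 ± 0.40, adjusted p = 0.00816). Of all genes 14.4% were higher and 5.36% lower (median 0.22), 11.1% and 12.7% with DESeq2, and 9.22% and 36.6% with library size alone, where all 9 genes were called. *fog-2* (−0.01), *tra-2* (−0.02), *fem-2* (−0.27), *fem-1* (−0.57) and *tra-1* (−0.99) were not called, with adjusted p between 0.14 and 0.992.

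The L4 IPs decided part of this. Without the second L4 IP, *fog-1* was at −1.49 (adjusted p = 0.00644), *fog-3* at −1.45 (adjusted p = 0.0862), *gld-1* at −0.74 (adjusted p = 0.00613) and *fog-2* at 1.21 (adjusted p = 0.0338). The stage differences of these genes rest on few libraries. Without the shallow first L4 IP, *tra-1* (−1.40, adjusted p = 1.58e-05), *fem-1* (−0.87, adjusted p = 0.00376) and *fem-2* (−0.59, adjusted p = 0.0373) were called as well. Without any 1 of the adult libraries *gld-1* was not called (−1.22 to −1.36, adjusted p = 0.187 to 0.235). *fog-3* and *fem-3* were lost without the first adult IP or either adult input (−1.98 to −2.46 for *fog-3*, adjusted p = 0.0635 to 0.194, and 1.58 to 1.71 for *fem-3*, adjusted p = 0.072 to 0.0989). *tra-1* was called without either L4 input (−1.09 and −1.13, adjusted p = 0.00702 and 0.0047) and with DESeq2 (−1.27, adjusted p = 0.00159), its size factors or no filter. *fem-1* was called with those size factors (−0.86, adjusted p = 0.0131) and with no filter (−1.11, adjusted p = 0.00131), and *fem-2* with no filter (−0.85, adjusted p = 0.0211).

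The inputs show how total small RNAs of the 9 genes changed from L4 to adult. Small RNAs of *fog-3* fell and those of *tra-2* and *fem-1* rose the most. In the CSR-1B strain 6 of the 9 genes were higher in adults and 2 lower, where 38.2% of all genes were higher and 39.2% lower (median −0.05; 48.8% and 25.1% with library size alone). In the CSR-1A+B strain 7 were higher and 1 lower, where 41.8% of all genes were higher and 41.4% lower (median −0.06).

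*fog-3* had 0.804 and 0.61 CPM in adults of the CSR-1B strain, against 5.81 and 4.37 CPM at L4 (−2.84 ± 0.36, adjusted p = 1.1e-05). In the CSR-1A+B strain it had 0.329 and 0.797 CPM in adults, against 3.85 and 3.94 CPM at L4 (−2.76 ± 0.42, adjusted p = 3.42e-05). Both strains thus had adult values below all L4 values.

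*tra-2* had 66.1 and 58.7 CPM in adults of the CSR-1B strain, against 12.6 and 13.7 CPM at L4 (2.26 ± 0.13, adjusted p = 8.49e-09). In the CSR-1A+B strain it had 70.1 and 67.8 CPM in adults, against 14.1 and 12.9 CPM at L4 (2.35 ± 0.11, adjusted p = 3.63e-10). *fem-1* had 58.2 and 57.1 CPM in adults, against 13.4 and 11.7 CPM at L4, in the CSR-1B strain (2.18 ± 0.12, adjusted p = 8.48e-09). *fem-1* in the CSR-1A+B strain was at 2.31 ± 0.11 (adjusted p = 4.57e-10). The adult libraries were thus more than 4 times the L4 libraries for both genes.

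*fem-2* was higher in adults too, at 21.2 and 21.4 CPM against 9.01 and 11.7 CPM at L4 in the CSR-1B strain (1.07 ± 0.16, adjusted p = 3.87e-05), and at 1.91 ± 0.18 (adjusted p = 3.02e-07) in the CSR-1A+B strain. *gld-1* had 87.9 and 80.3 CPM in adults, against 51.7 and 57.4 CPM at L4, in the CSR-1B strain (0.63 ± 0.11, adjusted p = 0.000151), and was at 0.99 ± 0.09 (adjusted p = 2.47e-07) in the CSR-1A+B strain. *tra-1* had 61.3 and 56.3 CPM in adults, against 40.9 and 42.5 CPM at L4, in the CSR-1B strain (0.50 ± 0.11, adjusted p = 0.000848), and was at 0.61 ± 0.09 (adjusted p = 2.6e-05) in the other. All 3 were without overlap in the CSR-1B strain.

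*fog-1* had 7.34 and 8.06 CPM in adults, against 4.98 and 5.76 CPM at L4, in the CSR-1B strain (0.54 ± 0.22, adjusted p = 0.0425), a call lost without the first L4 input (0.41, adjusted p = 0.226) or either adult input (0.60 and 0.51, adjusted p = 0.0686 and 0.108) and with DESeq2 (0.57, adjusted p = 0.195). *fog-1* in the CSR-1A+B strain was at 1.25 ± 0.22 (adjusted p = 0.000153). *fog-2* was at 0.37 (adjusted p = 0.173) in the CSR-1B strain, where it was called without the second L4 input (0.75, adjusted p = 0.00896), with no filter (0.52, adjusted p = 0.0288) or with library size alone (0.92, adjusted p = 0.00194), and at 0.66 ± 0.21 (adjusted p = 0.00955) in the CSR-1A+B strain, where it was lost without the first L4 input (0.48, adjusted p = 0.107) and with DESeq2 (0.69, adjusted p = 0.0838). *fem-3* had 20.8 and 20 CPM in adults, against 35.1 and 38.7 CPM at L4, in the CSR-1B strain (−0.84 ± 0.11, adjusted p = 1.51e-05, or −0.29, adjusted p = 0.0557, with library size alone). In the CSR-1A+B strain *fem-3* was at −0.26 (adjusted p = 0.0568), called without the first L4 input (−0.36, adjusted p = 0.0367).

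Markers of the germ line and soma moved with stage in the same libraries. In the CSR-1B strain 12 of 15 spermatogenic markers were lower (median −1.03; summed level 144.0 to 150.0 RPM in adults, 151.0 to 165.0 at L4), and 12 of 12 oogenic markers were higher (median 2.18; 523.0 to 562.0 in adults, 68.2 to 68.6 at L4). In the CSR-1A+B strain 15 of 15 spermatogenic markers were lower (median −1.71; 105.0 to 113.0 in adults, 168.0 to 175.0 at L4) and 12 of 12 oogenic markers were higher (median 2.58; 600.0 to 621.0 in adults, 67.0 to 69.7 at L4). Of 6 vitellogenin genes 6 were higher in each strain (median 3.62 in the CSR-1B strain and 5.14 in the CSR-1A+B strain), and 9 of 10 cuticle markers were lower (median −3.11 and −3.71). No germline marker was at 0 in any of these groups, and the part of cell composition in the values of the 9 genes was not tested.

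**Figure D4:**
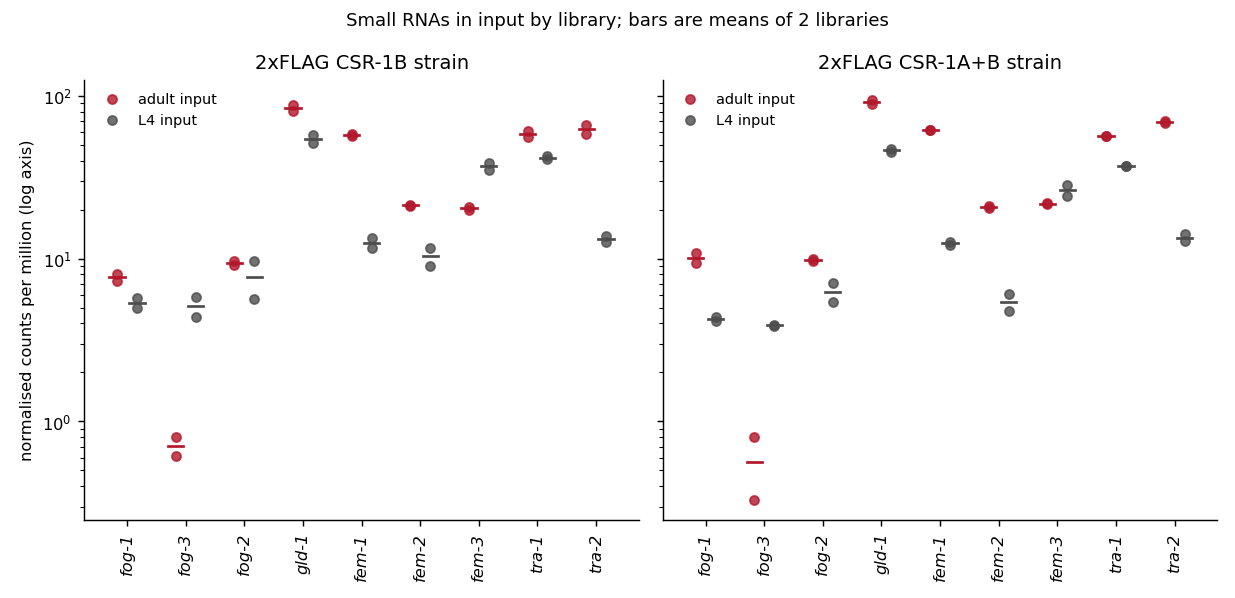
Normalised CPM of small RNAs of the 9 genes in adult (left of each pair) and L4 input libraries of the 2 strains, 2 libraries each, log axis, bars at the means. *fog-3* lies below 1 CPM in all 4 adult libraries, and *tra-2* and *fem-1* lie more than 4 times higher in adults.

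Between L4 inputs of the *csr-1a(cmp135)* tagged strain and the CSR-1A+B strain, none of the 9 genes was called, where 2.18% of all genes were higher and 4.27% lower (median −0.01). DESeq2 called none either, and 2 genes had an unadjusted p under 0.05. The largest difference was that of *fem-2*, with 7.51 and 9.4 CPM in the *csr-1a(cmp135)* strain and 5.46 and 4.29 CPM in the CSR-1A+B strain (0.75 ± 0.23, adjusted p = 0.0863). It was called without the first input of the *csr-1a(cmp135)* strain (0.93, adjusted p = 0.0236), with library size alone (0.78, adjusted p = 0.0241) and with no filter (0.78, adjusted p = 0.0162).

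L4 inputs of *alg-3/4* animals held more small RNAs against the terminal sperm-fate genes than those of the *2xHA::csr-1a* strain. Reads on *alg-3* and *alg-4* themselves were lower in these inputs than in the *2xHA::csr-1a* strain (−3.58 ± 0.22 and −4.02 ± 0.43, adjusted p = 5.43e-05 and 0.000476). *fog-1* had 18.5, 21.9 and 31.9 CPM in *alg-3/4* inputs and 6.26 and 4.38 CPM in *2xHA::csr-1a* inputs (2.17 ± 0.30, adjusted p = 0.00167). *fog-3* had 13, 19.9 and 26.6 CPM in *alg-3/4* inputs and 4.38 and 4.03 CPM in *2xHA::csr-1a* inputs (2.23 ± 0.34, adjusted p = 0.00241). Neither overlapped between these inputs, and both were called under every alternative run. Of all genes 11.5% were higher and 18.2% lower (median 0.04), or 5.23% and 29% with library size alone. In RPM, *fog-3* was at 5.961 to 12.84 in *alg-3/4* inputs and 6.829 to 8.369 in WAGO-1 inputs. *fog-1* was at 8.515 to 15.39 in *alg-3/4* inputs and 7.079 to 7.817 in WAGO-1 inputs. All other L4 inputs were below every *alg-3/4* input for both genes. Strain and tag allele also differ between *alg-3/4* and *2xHA::csr-1a* inputs and cannot be told apart from the loss of ALG-3 and ALG-4.

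*fog-2* had 20.9, 19.3 and 20.6 CPM in *alg-3/4* inputs and 13.6 and 13 CPM in *2xHA::csr-1a* inputs (0.61 ± 0.17, adjusted p = 0.03). *fem-2* had 23.9, 21.7 and 19.3 CPM in *alg-3/4* inputs and 13.8 and 15.2 CPM in *2xHA::csr-1a* inputs (0.58 ± 0.18, adjusted p = 0.0453). Both calls were lost with DESeq2 (adjusted p = 0.12 and 0.151), with no filter (adjusted p = 0.0691 and 0.0872), with library size alone (0.23 and 0.20, adjusted p = 0.38 and 0.47) and without either *2xHA::csr-1a* input or the second or the third *alg-3/4* input (0.57 to 0.65 for *fog-2*, adjusted p = 0.0518 to 0.199, and 0.49 to 0.67 for *fem-2*, adjusted p = 0.0758 to 0.268). The other 5 genes lay between −0.49 (*fem-1*, adjusted p = 0.0839) and 0.27 (*gld-1*), and without the first *alg-3/4* input *fem-1* (−0.54, adjusted p = 0.0359) and *tra-2* (−0.55, adjusted p = 0.0392) were called. *fem-1* (−0.86), *tra-2* (−0.86) and *tra-1* (−0.62) were lower with library size alone. Of the spermatogenic markers 8 of 15 were lower and 1 higher (119.0 to 143.0 RPM in *alg-3/4* inputs, 257.0 to 259.0 in *2xHA::csr-1a* inputs), none was at 0, and their part was not tested. The 15 include *alg-3* and *alg-4*, which are mutated in these animals and were both among the lower ones.

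In mRNA of *csr-1a* mutants at L4, the share of the 9 genes called was near that of all genes in *csr-1a(cmp135)*, and none was called in *csr-1a(cmp143)*. The *csr-1* gene itself had 53.8 to 67.96 counts per 1000000 in *csr-1a(cmp135)*, 44.04 to 56.17 in *csr-1a(cmp143)* and 131.4 to 140.8 in wild type (−1.03 and −1.34, adjusted p = 1.77e-05 and 0.000625), and these counts cover both isoforms. In *csr-1a(cmp135)* 2 of the 9 genes were higher and 1 lower, where 21% of all genes were higher and 17.7% lower (median −0.01; 16.6% and 26.3% with library size alone).

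*fem-3* had 5.29, 3.33 and 4.13 CPM in *csr-1a(cmp135)* and 2.79, 2.08 and 2.32 CPM in wild type (0.84 ± 0.23, adjusted p = 0.014). *gld-1* had 54.9, 30.6 and 31.8 CPM in *csr-1a(cmp135)* and 27.5, 25.9 and 26 CPM in wild type (0.57 ± 0.19, adjusted p = 0.04). *tra-2* had 15.9, 15.5 and 22.4 CPM in *csr-1a(cmp135)* and 25.6, 25.9 and 22.1 CPM in wild type (−0.45 ± 0.15, adjusted p = 0.0307). For *fem-3* and *gld-1* the mutants lay above wild type with no overlap, the first *csr-1a(cmp135)* library being the highest for both, and for *tra-2* they overlapped.

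Single libraries decided these calls. Without the first *csr-1a(cmp135)* library *fem-3* was at 0.64 (adjusted p = 0.066), *gld-1* at 0.24 (adjusted p = 0.113) and *tra-2* at −0.37 (adjusted p = 0.111). *gld-1* was also lost without any 1 wild-type library (0.55 to 0.60, adjusted p = 0.0504 to 0.0963), *fem-3* without the second wild-type library (0.74, adjusted p = 0.0549), and *tra-2* without the second *csr-1a(cmp135)* library (−0.36, adjusted p = 0.119) or the first or second wild-type library (−0.42 each, adjusted p = 0.0578 and 0.0921). With library size alone *gld-1* was at 0.45 (adjusted p = 0.0975).

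*fog-1* was low, at 1.48, 2.01 and 2.13 CPM in *csr-1a(cmp135)* and 1.13, 1.62 and 0.946 CPM in wild type (0.59, adjusted p = 0.133). *fog-3* had 0.56, 0.44 and 0.413 CPM in *csr-1a(cmp135)* and 1.27, 0.878 and 0.52 CPM in wild type (−0.89, adjusted p = 0.112), and was called without the third wild-type library (−1.17, adjusted p = 0.0468). *fog-2* was at 0.47 (adjusted p = 0.119). *fem-1* (−0.01), *fem-2* (0.05) and *tra-1* (−0.08) overlapped with wild type.

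In *csr-1a(cmp143)* none of the 9 mRNAs was called, where 12.5% of all genes were higher and 8.77% lower (median −0.02; 9.46% and 14.4% with library size alone). DESeq2 called none, and 2 had an unadjusted p under 0.05. *fog-1* had 2.47, 2.35 and 1.86 CPM in *csr-1a(cmp143)* and 1.12, 1.6 and 0.94 CPM in wild type (0.86 ± 0.30, adjusted p = 0.0748), with no overlap. *gld-1* had 33, 53.6 and 22.4 CPM in *csr-1a(cmp143)* and 27.4, 25.6 and 25.8 CPM in wild type (0.47, adjusted p = 0.261). *fem-3* had 4.44, 5.43 and 2.37 CPM in *csr-1a(cmp143)* and 2.78, 2.06 and 2.3 CPM in wild type (0.77, adjusted p = 0.129). The third *csr-1a(cmp143)* library was the lowest of its group for both, and without it *fem-3* (1.05, adjusted p = 0.011) and *gld-1* (0.72, adjusted p = 0.0205) were called.

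Markers moved in the same mRNA libraries. Of 12 oogenic markers 12 were higher in *csr-1a(cmp135)* and 6 in *csr-1a(cmp143)* (summed 203.0 to 384.0 counts per 1000000 in *csr-1a(cmp135)*, 92.6 to 292.0 in *csr-1a(cmp143)*, 77.6 to 79.1 in wild type). Of 6 vitellogenin genes, which adult intestine expresses, 5 and 6 were higher (2930.0 to 4490.0 in *csr-1a(cmp135)*, 1830.0 to 4990.0 in *csr-1a(cmp143)*, 152.0 to 250.0 in wild type). Of 15 spermatogenic markers none and 1 were lower (229.0 to 294.0 in *csr-1a(cmp135)*, 120.0 to 248.0 in *csr-1a(cmp143)*, 275.0 to 292.0 in wild type). No marker of these lists was at 0, and their part in the values of *gld-1*, *fem-3* and *tra-2* was not tested.

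**Figure D5:**
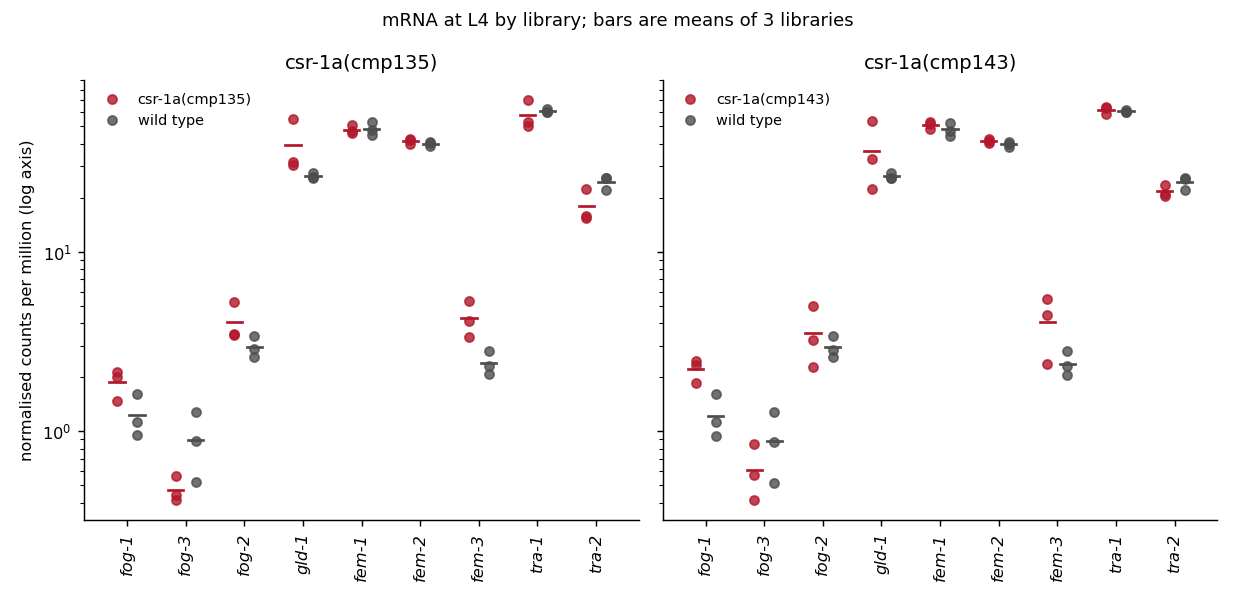
Normalised CPM of mRNA of the 9 genes by library in *csr-1a(cmp135)* (left panel) and *csr-1a(cmp143)* (right panel), each left of wild type, 3 libraries per group, log axis, bars at the means. *gld-1* reaches 54.9 and 53.6 CPM in 1 library of each mutant, against 25.6 to 27.5 CPM in wild type.

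Other genes of the pathway were described by count in 3 lists. The germline RNA regulators of the sperm-oocyte switch (23 tested, such as *fbf-1* and *fbf-2*, which encode repressors of *fem-3* mRNA) were mostly higher in the IPs of CSR-1B and CSR-1A+B. For CSR-1B at L4, 22 were higher, 1 lower and 21 were targets (median 2.26, all genes −1.25), where 32.4% of all genes were higher. For CSR-1A+B at L4, 22 were higher and 1 lower (median 2.62), where 39.1% of all genes were higher. The largest called differences were those of *daz-1* (3.66 ± 0.24), *prp-17* (3.22 ± 0.16) and *fbf-1* (3.21 ± 0.15). In adults, 22 were higher and 1 lower for CSR-1B (median 2.23) and 21 higher and 1 lower for CSR-1A+B (median 1.67). Among all genes 39.5% and 36.1% were higher there.

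For CSR-1A 4 of the 23 regulators were higher and none lower (median 0.59), which is near the share of all genes (20.8% higher). The called ones with the largest difference were *gld-2* (1.75 ± 0.22), a cytoplasmic poly(A) polymerase, *cpb-1* (1.34 ± 0.22), a CPEB protein of spermatogenesis, and *atx-2* (1.28 ± 0.22). In *alg-3/4* animals 6 were higher and 1 lower, again near the share of all genes (25.2% higher). For CSR-1A[15xAG] 18 were higher and 1 lower (median 1.25), where 37.1% of all genes were higher, with *mog-3* at 2.08 ± 0.17 and *fbf-2* at 1.97 ± 0.13. The change of *mog-3* (1.37 ± 0.32, adjusted p = 0.00768) and *fbf-2* (1.28 ± 0.42, adjusted p = 0.0441) from unaltered CSR-1A passed the test of the difference. For WAGO-1, 2 were higher and 19 lower (median −1.48, all genes −0.11), with *puf-8* at −2.54 ± 0.11 and *lip-1* at 2.43 ± 0.11. Among all genes 42.1% were higher and 44.1% lower for WAGO-1.

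The list of the upstream sex signal (5 of 8 genes tested at L4, such as *xol-1*, the switch gene of early embryos, and *sdc-2*, which starts dosage compensation) had these counts. For CSR-1B at L4 all 5 were lower (median −2.87, all genes −1.25), where 54.2% of all genes were lower. There *sdc-2* was at −3.73 ± 0.30 and *xol-1* at −3.21 ± 0.29. For WAGO-1 4 were higher and 1 lower (median 2.1), where 42.1% of all genes were higher and 44.1% lower, with *xol-1* at 2.30 ± 0.11. For CSR-1A[15xAG] 2 were higher and 2 lower (median −0.20), where 37.1% of all genes were higher and 36% lower, with *sdc-2* at 2.56 ± 0.14. For CSR-1A 1 was higher and 1 lower, in *alg-3/4* animals none was higher and 3 lower, and for CSR-1A+B at L4 none was higher and 4 lower. Among all genes 20.8% were higher and 13.7% lower for CSR-1A, 25.2% and 31.9% in *alg-3/4* animals, and 39.1% each for CSR-1A+B. In adults 3 of 8 were higher and 2 lower for CSR-1B, and likewise for CSR-1A+B. Among all genes 39.5% were higher and 46.6% lower for adult CSR-1B, and 36.1% and 36.3% for adult CSR-1A+B.

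Among partners and targets of the TRA and FEM proteins, 5 of 8 genes were tested for CSR-1B at L4, 2 higher and 3 lower. Of all genes 32.4% were higher and 54.2% lower. There *tra-4*, a zinc finger protein that promotes female fate, was at −3.46 ± 0.48. In mRNA, *mab-3*, a target of TRA-1 in male development, was lower in *csr-1a(cmp135)* (−1.66 ± 0.31, adjusted p = 0.00183) and in *csr-1a(cmp143)* (−1.29 ± 0.33, adjusted p = 0.0254). Also in *csr-1a(cmp135)*, *gld-3* was at 0.89 ± 0.24 and *sdc-1* at −0.69 ± 0.16. In total 1 of 23 regulators was higher and 2 lower in *csr-1a(cmp135)* mRNA, and none was called in *csr-1a(cmp143)*. Of all genes 21% were higher and 17.7% lower in *csr-1a(cmp135)*, and 12.5% and 8.77% in *csr-1a(cmp143)*.

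The 9 genes were also compared by their log2 enrichment over the 8 tagged IPs, among 10547 genes tested in all 8. Likeness was the Euclidean distance, and the IPs share their strains and counting. *fog-2* and *fem-2* were the nearest pair of members, at a distance of 0.847, with 0.721% of genes nearer to *fog-2*. *fem-3* and *tra-2* came next (1.6, 1.93% of genes nearer to *fem-3*), then *fem-1* and *tra-1* (1.8). Nearest to *fog-2* was *znfx-1* (0.379, r = 0.997), to *fem-2* *adr-1* (0.481, r = 0.995), to *gld-1* *ntl-9* (0.635, r = 0.994) and to *tra-1* *unc-132* (0.441, r = 0.975).

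The other members had these nearest genes over the same 8 IPs. They were *sec-6* for *fem-1* (0.498, r = 0.808), *mrpl-39* for *tra-2* (0.548, r = 0.915), WBGene00014917 for *fem-3* (0.727, r = 0.983), *orc-2* for *fog-1* (0.969, r = 0.936) and Y71F9AL.1 for *fog-3* (1.2, r = 0.92). *fog-3* was thus the member with the least similar nearest gene.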

How the data were processed

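Small RNA and mRNA libraries of whole *C. elegans* were counted per gene by the authors. Per the submitters' processing notes and the study's methods, small RNA reads were trimmed with the FASTX-Toolkit, mapped with Bowtie2 2.2.2 and counted with featureCounts 1.5.1 (the CSR-1B, CSR-1A+B and wild-type total libraries) or 1.6.5 (all others), and mRNA reads were trimmed with Trimmomatic 0.36, mapped with HISAT2 2.1.0 and counted with featureCounts 2.0.0. The deposited small RNA values are estimated counts, in which a read that overlaps several genes can be split, and were rounded to whole numbers before testing. The deposited mRNA values are raw counts. In both, 0 rows named no gene. One HA control input table holds 14424 genes only and was left out.

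Here, counts were filtered (filterByExpr), scaled by TMM and tested with edgeR 4.0.16 in R 4.3.3, with only the groups compared in each fit and a difference of enrichments as an interaction term. The alternatives were DESeq2 1.42.0, its size factors in edgeR, library size alone, no filter, a replicate block, reads on genes as the denominator of rates, and leaving out each library. Scripts were tested on simulated data. The 9 genes were named in every comparison, and of the other pathway genes at most 3 per comparison, the called ones with the largest difference. *mog-6* matched no symbol in the tables. The members and lists were chosen with earlier results of these data known. The main fits were unpaired. For the replicate block, IPs and inputs with the same number were taken as pairs because they come from the same lysate. The first CSR-1A IP and the second HA control IP had no input of their number and were left unpaired. Their deviations from the group means correlated between −0.0758 and 0.467. For CSR-1A the numbering of inputs differs between label and table header, so its pairs are uncertain. Standard errors and p-values include the spread between libraries, and low depth limits the precision for the genes with few counts.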

Additional observations from a re-analysis of the deposited data

Results flagged for a closer look

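Differences of enrichment between 2 Argonautes or 2 stages were past the threshold for these genes, each by the interaction test in edgeR with Benjamini-Hochberg adjustment. Between CSR-1A and CSR-1B at L4 they were −3.03 for *fog-1*, −2.80 for *gld-1*, −2.18 for *fog-3*, −1.86 for *fem-2* and −1.64 for *fog-2*. Isoform, antibody, counter version and levels in the inputs changed together there. Between WAGO-1 and CSR-1B at L4 they were −5.34 for *gld-1*, −4.56 for *fem-2*, −4.27 for *fog-2*, −3.63 for *fog-3*, −2.98 for *fog-1*, 2.77 for *fem-3* and 1.27 for *tra-2*. Between adult and L4 for CSR-1B they were −2.37 for *fog-3*, −2.29 for *fog-1*, −1.34 for *gld-1* and 1.61 for *fem-3*. The 3 comparisons share the 4 CSR-1B libraries of L4, so they are not independent of each other. The values without single libraries are given in the report.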

How the results depend on the processing

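Over 189 results of the 9 genes and 2061 values under alternatives, 1875 kept direction and call, 97 lost a call, 77 gained one and 12 turned direction. Of 89 called results, 60 were called under every alternative that was run. The 12 that turned were, with library size alone, *fem-3* 0.23, *gld-1* 0.33, *tra-1* 0.29 and *tra-2* 0.86 for CSR-1A in *alg-3/4* animals, *fem-3* 1.00, *tra-1* 0.86 and *tra-2* 1.02 for CSR-1A[15xAG], *fog-1* −0.55 for WAGO-1 and *tra-2* −0.028 for WAGO-1 minus CSR-1B, and further *tra-2* for CSR-1B at L4 with no filter (0.85) or without the first IP (0.52; −0.51 to 0.52 over left-out libraries) and *fog-2* for adult minus L4 without the second L4 IP (1.21; −0.52 to 1.21). Library size alone shifts all genes together. For the others the cause was not tested.

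Counts of the 9 genes changed as follows. For CSR-1A, 2 called became 1 with DESeq2, its size factors or the replicate block, and 1 target became 0 in those fits and 2 with reads on genes as denominator. In *alg-3/4* animals 5 called became 2 with no filter and 1 target became 4 with library size alone, and CSR-1A[15xAG] targets went to 6 with library size alone. In adults CSR-1B targets became 5 and CSR-1A+B targets 4 with DESeq2, its size factors or no filter. WAGO-1 targets became 0 with library size alone and 1 with no filter. The HA control had 1 called with the replicate block. CSR-1A[15xAG] minus CSR-1A had 7 with library size alone and 1 with the replicate block, and CSR-1B adult minus L4 had 9 with library size alone and 7 with no filter. The *csr-1a(cmp135)* input comparison had 1 with library size alone or no filter, and the *alg-3/4* input comparison had 2 with DESeq2 or no filter.

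Leaving out single libraries gave 0 to 4 called and 0 to 1 target for CSR-1A, 2 to 5 called and 0 to 1 target in *alg-3/4* animals, 4 to 5 targets for adult CSR-1B, 1 to 2 targets for WAGO-1, 0 to 1 called in each control IP, 3 to 7 for CSR-1A minus CSR-1B, 1 to 7 for CSR-1B adult minus L4, 0 to 1 for the *csr-1a(cmp135)* inputs, 2 to 6 for the *alg-3/4* inputs, 0 to 3 for *csr-1a(cmp135)* mRNA and 0 to 2 for *csr-1a(cmp143)* mRNA. Leaving out 1 of 2 libraries assumes that the lone one varies like the other group.

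With reads on genes as denominator, wild-type small RNA levels per kilobase were 2.47 for *fog-1*, 14.5 for *fog-2*, 4.62 for *fog-3*, 55.1 for *gld-1*, 16.1 for *fem-1*, 10.3 for *fem-2*, 10.5 for *fem-3*, 11.3 for *tra-1* and 6.0 for *tra-2*. Among inputs and mRNA libraries equal numbers mark no shared sample (r between −0.216 and 0.0534). There the replicate block lost the *fog-1* call between adult and L4 inputs of the CSR-1B strain (0.52, adjusted p = 0.057) and called *fem-1* (−0.54) and *tra-2* (−0.56) in *alg-3/4* inputs. In the paired IP fits it changed no call beyond those printed. Depth limits *fog-3* most, with 3 to 39 counts per adult library.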
